A study of Mus musculus with 12 samples.

Results

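The genes described here are 37 genes of neutrophils, basophils and mast cells, many of which encode proteins stored in cytoplasmic granules, measured by RNA sequencing in cultures of mouse macrophages. They were chosen by name, and each of the 37 had a row among the 23438 genes of the deposited table, matched by Ensembl ID through the GENCODE M21 annotation. The cells were primary bone marrow derived macrophages (BMDMs), which are marrow cells driven to become macrophages in a dish, collected on day 7 of differentiation from C57 mice with atherosclerosis. The tested libraries were 5 labelled KO, for knockout of Baf60a, and these were compared with 7 labelled WT, for wild type. Baf60a is the product of Smarcd1, a subunit of the SWI/SNF complex that repositions nucleosomes. The labels named no promoter or Cre driver behind the KO, and no mouse or culture behind any library. The p-values therefore set the difference between KO and WT against the spread among libraries of the same genotype. Part of that spread may be technical, and it need not be a spread among mice. Levels are in TPM, each gene's share of a library's transcripts after correction for transcript length, scaled to a fixed total.

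Granulocytes arise in bone marrow next to the monocytes from which macrophages are grown. A neutrophil fills its granules in sequence as it matures: azurophil granules with myeloperoxidase and serine proteases at the promyelocyte stage, then specific granules with lactoferrin and other iron-binding and antimicrobial proteins, then gelatinase granules with matrix-degrading enzymes. Because transcription of each set is largely confined to its own stage, transcripts of early and late granule genes are commonly used to stage granulocytes. Basophils and mast cells store other proteases, with histamine, and depend on the transcription factor GATA2. In bulk RNA from a macrophage culture, fewer cells of a type and less RNA per cell cannot be told apart.

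Smarcd1 was lower in KO, with 5.99 to 7.58 TPM in its 5 libraries, against 11.6 to 15.6 TPM in the 7 WT libraries. The macrophage label was borne out by Csf1r, Adgre1, Cd68 and the complement genes C1qa and C1qb, whose lowest value in any of the 12 libraries was 146 TPM, for C1qa in WT replicate 4. WT replicates 2, 3 and 4 stood apart from the rest. Their summed level of 12 macrophage markers was 5473, 7637 and 3914 TPM, against 11238 to 13918 TPM in the other 9 libraries. Of the 12 markers, 7 were lower in all 3 than in any of the other 9, Adgre1, Cd68, Mertk and Itgam overlapped, and Marco, a scavenger receptor gene, was at 1569.9, 2043 and 1186 TPM against 0.13 to 2.64 TPM. Their summed level of 9 stromal markers (collagens, smooth muscle actin and others) was 5944, 4204 and 10511 TPM, against 116 to 619.9 TPM in the other 9. No label sets these 3 libraries apart, so each comparison below is given with all 12 libraries and again with the 9 left without them.

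**Figure D1:**
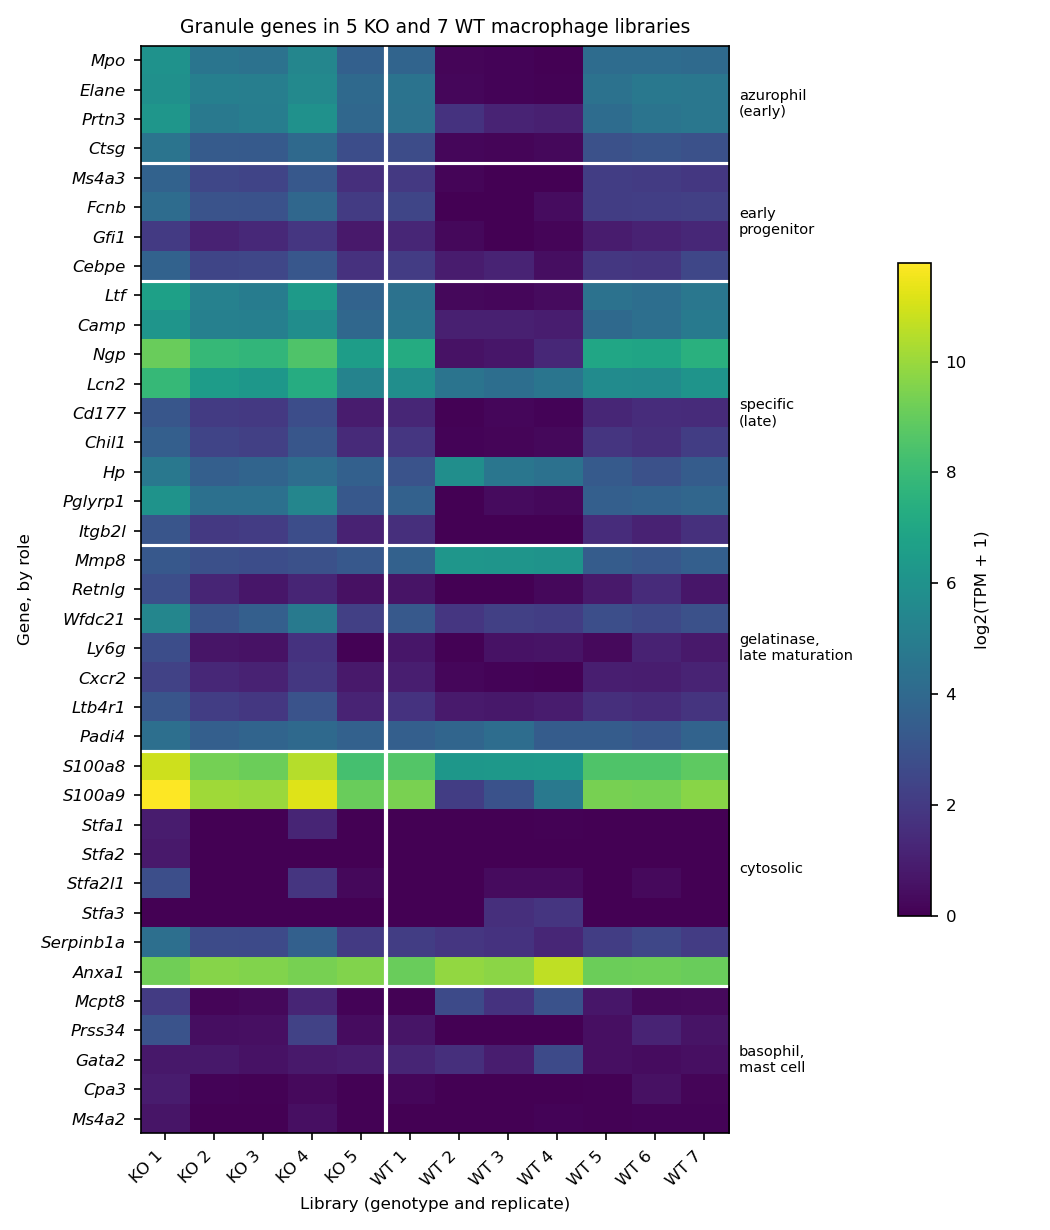
Level of each of the 37 genes (rows, grouped by role) in each library (columns, 5 KO then 7 WT), coloured by log2(TPM + 1). KO replicates 1 and 4 hold the brightest columns for most neutrophil genes. WT replicates 2, 3 and 4 all lie below the other 9 libraries for 21 of the 27 tested genes, against 25.5% of all genes tested. They all lie above for Mmp8 and Anxa1, against 23.6% of all genes tested.

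With all 12 libraries, none of the granule genes differed between KO and WT past the threshold. The test was limma, a linear model fitted to log2(TPM + 1) of every gene that reached 1 TPM in 5 or more libraries, with p-values adjusted by the Benjamini-Hochberg method over those 11152 genes and a threshold of 0.05. Of the 37 members, 27 passed that filter, and 0 of these 27 were called, where the share called over all genes tested was 0.126% (0.108% higher and 0.0179% lower in KO). Higher levels in KO were nevertheless common, since 24 of the 27 log2 fold changes were positive, against 57.9% over all genes tested. Their median was 1.40, against 0.04 over all genes tested. At an unadjusted p under 0.05 there were 23 of the 27, and 17.5% of all genes tested. When KO replicate 1 was left out there were 15 of the 27, and 12.5% of all genes tested. The adjusted p-values of the 27 ran from 0.214 for Fcnb to 0.942 for Hp.

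Without WT replicates 2, 3 and 4 the count of called members was again 0 of 27, and 2.33% of all genes tested were called (1.61% higher and 0.717% lower in KO). Of the 260 genes behind that percentage 180 were higher and 80 lower in KO, a split that became 73 higher and 133 lower when each library was scaled by its median ratio. Positive log2 fold changes made up 26 of the 27 and 67.5% of all genes, with a median of 0.75 against 0.05 over all genes. With median-ratio scaling 26 of the 27 and 49.4% of all genes were positive. An unadjusted p under 0.05 was found for 6 members and for 18.9% of all genes. That count of members was 25 without KO replicate 5, where 19.7% of all genes passed. It was 3 without KO replicate 1, KO replicate 4, WT replicate 5 or WT replicate 6, where 19.4%, 15.2%, 17.9% and 19.3% of all genes passed. Without KO replicate 1 the median was 0.47. The ranges of the KO and WT libraries did not overlap for 2 members, Anxa1 and Hp, both higher in KO, and 7.09% of all genes tested had KO ranges wholly above WT in these 9 libraries. No member had a KO range wholly below WT, and 2.08% of all genes did. With all 12 libraries the ranges of every tested member overlapped, while 2.92% of all genes tested had KO ranges above WT and 0.637% below. Both fits hold the same KO libraries, and their shared direction is not independent support.

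**Figure D2:**
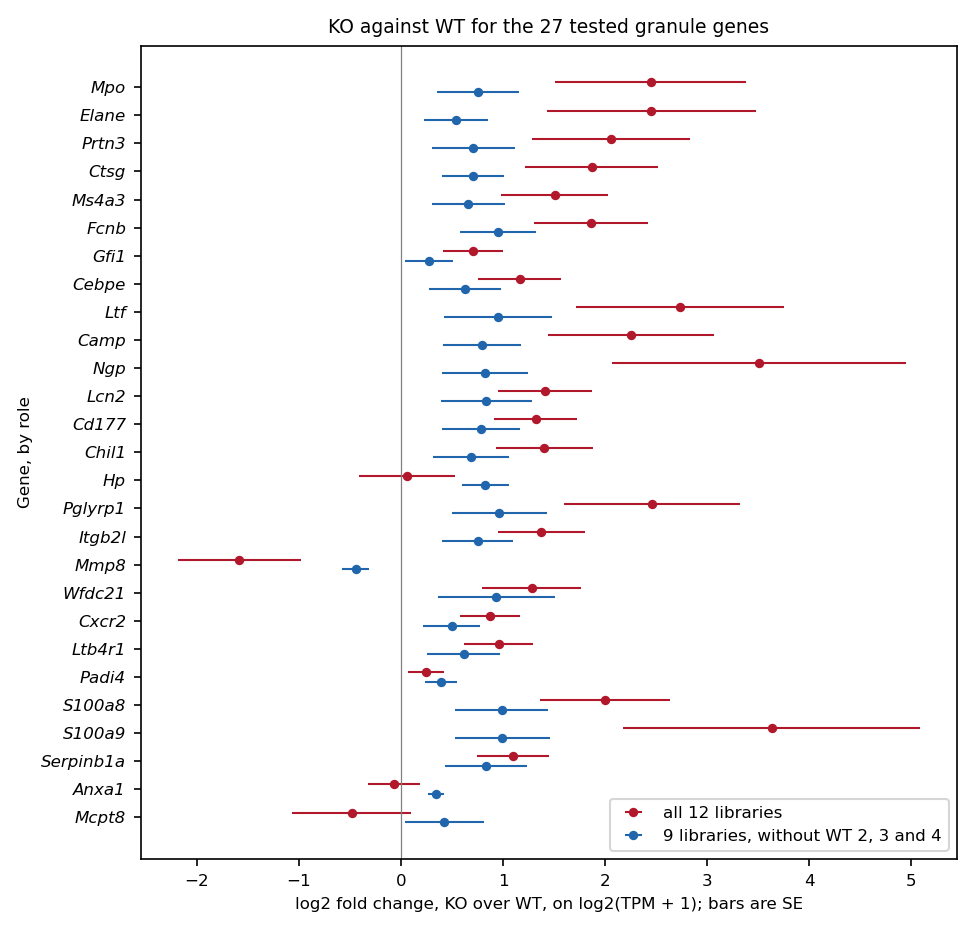
Log2 fold change of KO over WT on the log2(TPM + 1) scale for the 27 tested genes, with all 12 libraries (red) and with the 9 left without WT replicates 2, 3 and 4 (blue). Points are limma estimates and bars are standard errors. Most red points lie to the right of the blue ones, and no gene passed an adjusted p of 0.05 in either set.

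The azurophil granule genes were expressed at moderate levels in all 5 KO libraries and in 4 of the WT libraries, and were almost absent from the other 3. Mpo encodes myeloperoxidase, which makes hypochlorous acid. It stood at 62.3, 23.0, 21.04, 41.4 and 11.1 TPM in KO replicates 1 to 5, against 12.96, 16.7, 17.04 and 16.0 TPM in WT replicates 1, 5, 6 and 7 and 0.12, 0.08 and 0.03 TPM in WT replicates 2, 3 and 4. Elane, the neutrophil elastase gene (chromosome 10, 79886247 to 79888215, plus strand, GRCm38), was at 60.02, 32.5, 31.8, 46.0 and 15.4 TPM in the KO libraries, against 21.5, 20.9, 25.4 and 24.6 TPM in WT replicates 1, 5, 6 and 7 and 0.14, 0.07 and 0.04 TPM in WT replicates 2, 3 and 4. KO replicate 5 thus lay below 4 of the WT libraries for both genes while the other KO libraries lay above all WT libraries. Prtn3, which encodes proteinase 3 and lies next to Elane (chromosome 10, 79874476 to 79883174), was at 71.3, 26.1, 30.4, 60.8 and 14.1 TPM in KO, against 20.5, 16.8, 22.4 and 24.2 TPM in WT replicates 1, 5, 6 and 7 and 2.27, 1.22 and 1.04 TPM in WT replicates 2, 3 and 4. Ctsg, the cathepsin G gene, was the lowest of the 4, at 22.3, 9.51, 9.11, 15.5 and 5.86 TPM in KO, against 5.63, 6.55, 7.56 and 6.52 TPM in WT replicates 1, 5, 6 and 7 and 0.20 TPM or less in WT replicates 2, 3 and 4. Mpo had a log2 fold change of 2.45 ± 0.934 (SE; adjusted p 0.249, limma) with 12 libraries and 0.76 ± 0.403 (adjusted p 0.347) with 9. For Elane the values were 2.45 ± 1.03 (adjusted p 0.266, limma) and 0.54 ± 0.314 (adjusted p 0.391). None of the 4 was called in either set, and their median log2 fold change was 2.25 with 12 libraries and 0.71 with 9.

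The neighbours Elane and Prtn3 kept a ratio of Prtn3 to Elane of 0.804 to 1.32 in the 9 libraries. Their promoter windows are shown because the pair varied together across these libraries. Each runs from 250 bases before to 50 bases after the RefSeq transcription start (GRCm38.p6), and capitals mark GAGGAA, a core of the sequence bound by PU.1, the myeloid transcription factor encoded by Spi1. The Elane window is chr10:79886062-79886361 and the Prtn3 window is chr10:79879417-79879716, both on the plus strand.
Elane: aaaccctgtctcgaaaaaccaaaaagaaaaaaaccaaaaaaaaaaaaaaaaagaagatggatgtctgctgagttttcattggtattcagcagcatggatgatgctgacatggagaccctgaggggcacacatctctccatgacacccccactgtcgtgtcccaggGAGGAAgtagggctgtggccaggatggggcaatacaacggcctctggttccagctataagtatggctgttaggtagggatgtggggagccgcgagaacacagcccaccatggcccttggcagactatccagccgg
Prtn3: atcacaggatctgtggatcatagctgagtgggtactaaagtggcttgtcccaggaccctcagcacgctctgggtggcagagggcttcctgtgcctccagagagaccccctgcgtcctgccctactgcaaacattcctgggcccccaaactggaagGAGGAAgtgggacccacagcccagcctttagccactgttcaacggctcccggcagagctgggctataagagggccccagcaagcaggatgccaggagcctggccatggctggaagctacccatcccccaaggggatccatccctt
The match began at position -85 in Elane and at -95 in Prtn3, counted from the start site, and neither window held the C/EBP or GATA pattern described further on.

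Genes of early granulocyte progenitors followed the azurophil set. Fcnb, which encodes ficolin B, a lectin of immature myeloid cells, stood at 16.8, 7.16, 6.76, 14.1 and 3.09 TPM in the KO libraries, against 4.56, 3.41, 3.57 and 3.75 TPM in WT replicates 1, 5, 6 and 7 and 0.03, 0 and 0.30 TPM in WT replicates 2, 3 and 4. Its log2 fold change was 1.86 ± 0.56 (SE; adjusted p 0.214, limma) with 12 libraries and 0.95 ± 0.374 (adjusted p 0.211) with 9. Ms4a3, a membrane protein gene that marks granulocyte and monocyte progenitors, lay between 2.02 and 11.95 TPM in KO, against 2.75 to 3.47 TPM in WT replicates 1, 5, 6 and 7, and was listed at 0.12, 0 and 0 TPM in WT replicates 2, 3 and 4. The other genes of this set encode transcription factors. Cebpe, which is needed for specific granules, was at 11.94, 4.56, 4.73, 8.13 and 2.17 TPM in KO, against 3.22, 2.80, 2.52 and 4.66 TPM in WT replicates 1, 5, 6 and 7 and 0.84, 1.27 and 0.35 TPM in WT replicates 2, 3 and 4. Gfi1, a repressor needed for neutrophil maturation, lay between 0.75 and 2.98 TPM in KO, against 0.89 to 1.5 TPM in WT replicates 1, 5, 6 and 7. The groups overlapped for all 4 genes in both sets, and 0 of 4 passed the test.

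The most abundant specific granule transcript in 9 of the 12 libraries was Ngp, which encodes a cathelicidin-related protein of neutrophils. Ngp stood at 535, 239.7, 213, 369 and 94.3 TPM in KO replicates 1 to 5, against 151, 125, 116 and 177 TPM in WT replicates 1, 5, 6 and 7 and 0.50, 0.65 and 1.48 TPM in WT replicates 2, 3 and 4. The KO mean was 290.3 ± 168 TPM and the WT mean 81.7 ± 78.0 TPM (SD, n = 5 and 7). The groups overlapped, since KO replicate 5 was below WT replicates 1, 5, 6 and 7, and the log2 fold change was 3.51 ± 1.44 (SE; adjusted p 0.259, limma) with 12 libraries and 0.82 ± 0.419 (adjusted p 0.324) with 9. Ltf, the lactoferrin gene, was at 104, 35.2, 29.6, 84.6 and 12.3 TPM in KO, against 20.6, 20.5, 18.1 and 24.4 TPM in WT replicates 1, 5, 6 and 7 and 0.28 TPM or less in WT replicates 2, 3 and 4. Camp, the gene of the antimicrobial peptide cathelicidin, was at 68.9, 34.5, 32.7, 53.0 and 14.3 TPM in KO, against 22.6, 15.2, 18.5 and 26.7 TPM in WT replicates 1, 5, 6 and 7 and 1.05, 1.08 and 0.91 TPM in WT replicates 2, 3 and 4. Pglyrp1, a peptidoglycan recognition protein gene, was at 64.2, 19.3, 19.2, 40.8 and 8.41 TPM in KO, against 10.8 to 13.7 TPM in WT replicates 1, 5, 6 and 7 and 0.03 to 0.27 TPM in WT replicates 2, 3 and 4. For these 3 genes, too, KO replicates 1 and 4 were the highest libraries and KO replicate 5 was below WT replicates 1, 5, 6 and 7.

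Lcn2 and Hp were the specific granule genes that remained well above 1 TPM in WT replicates 2, 3 and 4. Lcn2 encodes lipocalin 2, which binds bacterial siderophores and is also made by macrophages and epithelia. It stood at 236, 89.0, 73.9, 157 and 37.5 TPM in KO, against 54.9, 50.3, 48.5 and 66.7 TPM in WT replicates 1, 5, 6 and 7 and 22.0, 18.0 and 22.9 TPM in WT replicates 2, 3 and 4. The ratio of Lcn2 to Ngp was 0.346 to 0.441 in 9 libraries and 15.5 to 44.0 in WT replicates 2, 3 and 4. Hp, the gene of haptoglobin, which binds free haemoglobin, went the other way in those 3 libraries. It was at 25.45, 10.96, 12.9, 17.6 and 11.4 TPM in KO, against 7.05, 9.04, 6.51 and 9.60 TPM in WT replicates 1, 5, 6 and 7 and 55.1, 24.0 and 20.2 TPM in WT replicates 2, 3 and 4. All KO libraries were above WT replicates 1, 5, 6 and 7 and all but KO replicate 1 were below WT replicates 2, 3 and 4. The log2 fold change of Hp was 0.83 ± 0.230 (SE; adjusted p 0.0913, limma) with 9 libraries and 0.06 ± 0.474 (adjusted p 0.942) with 12. The cell surface and lectin genes of this set, Cd177, Itgb2l and Chil1, lay between 0.88 and 10.8 TPM in KO, against 1.2 to 3.44 TPM in WT replicates 1, 5, 6 and 7 and 0 to 0.21 TPM in WT replicates 2, 3 and 4. Cd177 encodes the receptor that holds proteinase 3 on the cell surface, Itgb2l an integrin beta chain and Chil1 a chitinase-like protein. Over the specific granule set 0 of 9 genes passed the test in either set, with a median log2 fold change of 1.41 with 12 libraries and 0.82 with 9.

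The promoter windows of Ngp and Lcn2 are shown to set a gene that was nearly lost in WT replicates 2, 3 and 4 beside one that was lower there but remained at 18.0 TPM or more. Capitals mark TTGCNNAA, a pattern of the sites bound by CCAAT/enhancer binding proteins (C/EBP), or GAGGAA, on either strand. The Ngp window is chr9:110419558-110419857 on the plus strand and the Lcn2 window is chr2:32387690-32387989 on the minus strand, both in GRCm38.p6 from RefSeq and printed in the direction of transcription.
Ngp: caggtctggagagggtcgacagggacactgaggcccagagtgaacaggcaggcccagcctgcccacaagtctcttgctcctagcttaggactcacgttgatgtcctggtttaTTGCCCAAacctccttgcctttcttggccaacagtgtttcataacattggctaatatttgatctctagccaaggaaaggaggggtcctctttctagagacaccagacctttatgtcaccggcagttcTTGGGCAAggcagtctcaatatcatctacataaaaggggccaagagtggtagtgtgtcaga
Lcn2: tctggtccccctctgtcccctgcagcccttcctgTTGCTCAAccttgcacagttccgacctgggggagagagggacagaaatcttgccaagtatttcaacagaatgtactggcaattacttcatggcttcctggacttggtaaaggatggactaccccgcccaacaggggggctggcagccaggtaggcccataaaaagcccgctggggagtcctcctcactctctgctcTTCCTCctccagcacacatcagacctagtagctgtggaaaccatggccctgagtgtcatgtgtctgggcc
Ngp held 2 C/EBP matches, at -138 and -11, and no PU.1 match. Lcn2 held 1 C/EBP match at -216 and 1 PU.1 match at -20. Ltf, which was at 0.28 TPM or less in WT replicates 2, 3 and 4, also held both patterns, at -75 and -157. Whether these matches go with the levels in those libraries was not tested.

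Among the genes grouped here under gelatinase granule and late maturation, Mmp8 ran against the rest. The grouping was chosen for this description, and the specific granule sums given below leave Mmp8 out. Mmp8 encodes neutrophil collagenase, a protease that cleaves fibrillar collagen. It stood at 8.61, 6.38, 5.89, 6.5 and 8.62 TPM in KO, against 11.4, 9.81, 8.19 and 11.01 TPM in WT replicates 1, 5, 6 and 7 and 72.2, 68.9 and 65.6 TPM in WT replicates 2, 3 and 4. KO replicates 1 and 5 were level with each other and above WT replicate 6 alone among the WT libraries. The log2 fold change was -1.58 ± 0.602 (SE; adjusted p 0.249, limma) with 12 libraries and -0.44 ± 0.129 (adjusted p 0.104) with 9. Wfdc21, which encodes a small protein with a whey acidic protein domain, was at 41.1, 7.24, 10.7, 28.1 and 3.72 TPM in KO, against 8.66, 6.03, 4.78 and 6.5 TPM in WT replicates 1, 5, 6 and 7 and 2.59, 3.73 and 3.44 TPM in WT replicates 2, 3 and 4. The chemoattractant receptor genes were low in all libraries. Cxcr2, a receptor for neutrophil chemokines, lay between 0.76 and 4.06 TPM in KO, against 0.90 to 1.24 TPM in WT replicates 1, 5, 6 and 7 and 0.05 to 0.15 TPM in WT replicates 2, 3 and 4. Ltb4r1, the leukotriene B4 receptor gene, lay between 1.22 and 7.60 TPM in KO, against 1.76 to 2.37 TPM in WT replicates 1, 5, 6 and 7 and 0.68 to 0.86 TPM in WT replicates 2, 3 and 4. Padi4, which encodes the enzyme that citrullinates histones when neutrophils release chromatin, varied little, at 10.9 to 18.7 TPM in KO and 8.15 to 17.6 TPM in all 7 WT libraries.

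The Mmp8 window, chr9:7558179-7558478 on the plus strand in GRCm38.p6 from RefSeq, is shown because the gene ran opposite to most of the others, with capitals as before.
Mmp8: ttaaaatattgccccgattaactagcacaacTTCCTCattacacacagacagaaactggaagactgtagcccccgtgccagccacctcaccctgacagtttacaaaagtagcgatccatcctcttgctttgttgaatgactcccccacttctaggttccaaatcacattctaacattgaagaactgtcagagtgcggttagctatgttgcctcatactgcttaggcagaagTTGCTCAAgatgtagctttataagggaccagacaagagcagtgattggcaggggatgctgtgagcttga
It held 1 C/EBP match at -19 and 1 PU.1 match at -219.

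Of the genes in the late maturation group, Ly6g and Retnlg were scarce, while Mmp8, Wfdc21 and Padi4, given above, were higher than both in every library. Ly6g, which encodes the surface antigen used to identify mouse neutrophils, was at 5.92, 0.60, 0.47, 2.32 and 0.06 TPM in KO, against 0.63, 0.22, 1.21 and 0.73 TPM in WT replicates 1, 5, 6 and 7 and 0.06, 0.49 and 0.55 TPM in WT replicates 2, 3 and 4. Retnlg, a resistin-like gene of mature neutrophils, was at 6.02, 1.31, 0.65, 1.35 and 0.46 TPM in KO, against 0.52, 0.75, 1.70 and 0.65 TPM in WT replicates 1, 5, 6 and 7 and 0, 0 and 0.20 TPM in WT replicates 2, 3 and 4. Both genes had their highest value in KO replicate 1, and neither passed the filter on low levels. The ratio of Ly6g to Mpo ran from 0.00539 in KO replicate 5 to 0.0950 in KO replicate 1, with 0.0132 to 0.0710 in WT replicates 1, 5, 6 and 7. The lowest of these ratios rests on a Ly6g level of 0.06 TPM. Between Ngp and Mpo, which were at higher levels, the ratio was 6.84 to 11.6 in the same 9 libraries.

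S100a8 and S100a9, whose proteins pair to form the zinc- and calcium-binding complex calprotectin of the neutrophil cytosol, were with Anxa1 the most abundant of the 37 transcripts in 9 of the 12 libraries. The genes lie close together on chromosome 3 (90668978 to 90670035 and 90692632 to 90695721). S100a9 stood at 3507, 1102, 1029, 2375 and 536 TPM in KO replicates 1 to 5, against 678, 664, 632 and 818 TPM in WT replicates 1, 5, 6 and 7 and 3.39, 6.82 and 26.1 TPM in WT replicates 2, 3 and 4. S100a8 stood at 1910.3, 637, 557, 1402 and 319.7 TPM in KO, against 399.8, 371, 364 and 457 TPM in WT replicates 1, 5, 6 and 7 and 73.7, 77.0 and 79.1 TPM in WT replicates 2, 3 and 4. The ratio of S100a9 to S100a8 was 1.68 to 1.85 in 9 libraries and 0.0460, 0.0886 and 0.330 in WT replicates 2, 3 and 4, so the partner that was the higher of the pair elsewhere was the lower there. The KO mean of S100a9 was 1709.9 ± 1213 TPM and the WT mean 404 ± 371 TPM (SD, n = 5 and 7). Its log2 fold change was 3.63 ± 1.45 (SE; adjusted p 0.255, limma) with 12 libraries and 0.99 ± 0.467 (adjusted p 0.287) with 9. S100a8 gave 2.0 ± 0.635 (SE; adjusted p 0.217, limma) and 0.99 ± 0.455 (adjusted p 0.276), so neither gene passed the test.

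The S100a9 window, chr3:90695672-90695971 on the minus strand in GRCm38.p6 from RefSeq, is shown because this gene reached the highest level of any of the 37, with capitals for C/EBP or PU.1 matches as before.
S100a9: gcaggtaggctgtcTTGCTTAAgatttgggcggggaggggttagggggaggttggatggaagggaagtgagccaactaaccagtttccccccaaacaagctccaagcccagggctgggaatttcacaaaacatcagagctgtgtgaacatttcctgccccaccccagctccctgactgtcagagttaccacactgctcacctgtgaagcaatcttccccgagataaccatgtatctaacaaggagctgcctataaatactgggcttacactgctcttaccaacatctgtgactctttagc
It held 1 C/EBP match at -236, no PU.1 match and, left in lower case, 1 GATA match at -30.

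Anxa1, the gene of annexin A1, a protein of neutrophil and macrophage cytosol that limits inflammation, behaved differently from all of these. It stood at 597, 786, 757, 664 and 746 TPM in KO, against 546, 553, 581 and 547 TPM in WT replicates 1, 5, 6 and 7 and 947, 839 and 1622 TPM in WT replicates 2, 3 and 4. Every KO library was above WT replicates 1, 5, 6 and 7 and below WT replicates 2, 3 and 4, and KO replicates 1 and 4, highest for most granule genes, were the lowest KO libraries. With 9 libraries the log2 fold change was 0.34 ± 0.0761 (SE) and the limma adjusted p was 0.0505, just short of the threshold, and with 12 libraries it was -0.07 ± 0.255 (adjusted p 0.867). Leaving out 1 of the 9 libraries at a time gave 0.30 to 0.40 with limma adjusted p of 0.0117 to 0.145, and only without KO replicate 1, which held the lowest KO level, was it under 0.05. Serpinb1a, an inhibitor of neutrophil serine proteases, was at 18.98, 5.54, 5.28, 11.2 and 3.05 TPM in KO, against 3.39, 3.47, 4.66 and 3.30 TPM in WT replicates 1, 5, 6 and 7 and 2.59, 2.33 and 1.37 TPM in WT replicates 2, 3 and 4. The stefin A genes, which encode cysteine protease inhibitors of mouse neutrophils, were near 0. Stfa2l1 was at 6.04 and 2.56 TPM in KO replicates 1 and 4 and at most 0.29 TPM in the other 10 libraries. Stfa1 was at 0.86 and 1.31 TPM in the same KO libraries and at 0.04 TPM or 0 elsewhere, and Stfa2 was listed above 0 only in KO replicate 1, at 0.74 TPM. Stfa3 was listed at 1.99 and 2.52 TPM in WT replicates 3 and 4 and at 0 in the other 10 libraries. Stfa1, Stfa2 and Stfa2l1 share 15.0% to 23.8% of their 51-base stretches with other genes, so their separate levels are uncertain.

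The 5 basophil and mast cell genes were low, with 7.02 TPM the highest value in any library. Prss34, a serine protease of basophils, was at 7.02, 0.37, 0.40, 4.03 and 0.33 TPM in KO, against 0.61, 0.41, 1.28 and 0.55 TPM in WT replicates 1, 5, 6 and 7, and was listed at 0 in WT replicates 2, 3 and 4. Mcpt8, another basophil protease, was at 3.15, 0.11, 0.21, 1.31 and 0.10 TPM in KO, against 0.04, 0.64, 0.20 and 0.25 TPM in WT replicates 1, 5, 6 and 7 and 5.35, 2.27 and 6.87 TPM in WT replicates 2, 3 and 4. The 2 proteases thus shared their high KO libraries, replicates 1 and 4, and parted in WT replicates 2, 3 and 4, where Prss34 was listed at 0 and Mcpt8 was at its highest WT levels. Gata2 lay between 0.49 and 0.88 TPM in KO, against 0.32 to 1.32 TPM in WT replicates 1, 5, 6 and 7 and 0.93 to 5.28 TPM in WT replicates 2, 3 and 4. Cpa3, the carboxypeptidase of mast cell granules, and Ms4a2, the beta chain of the high-affinity IgE receptor, stayed below 1 TPM in all 12 libraries, with their highest values, 0.84 and 0.59 TPM, in KO replicate 1. Of the 5 genes Mcpt8 alone passed the filter, with a log2 fold change of -0.48 ± 0.583 (SE; adjusted p 0.596, limma) with 12 libraries and 0.43 ± 0.39 (adjusted p 0.608) with 9. Among 17 further basophil and mast cell genes, 12 were under 1 TPM in every library, and the mast cell protease genes Mcpt2, Mcpt4 and Tpsb2 were listed at 0 in all 12. Of the 3 that were tested, Hpgds, a prostaglandin D2 synthase gene also expressed in macrophages, was higher in KO with 9 libraries, by 0.32 ± 0.0632 on the log2 scale (SE; adjusted p 0.0348, limma). Hpgds was at 81.7 to 102 TPM in KO, against 67.7 to 75.96 TPM in WT replicates 1, 5, 6 and 7 and 42.3 to 60.03 TPM in WT replicates 2, 3 and 4, and with 12 libraries its log2 fold change was 0.52 ± 0.132 (adjusted p 0.160, not called).

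The Prss34 window, chr17:25298144-25298443 on the plus strand in GRCm38.p6 from RefSeq, is shown because Prss34 held the highest single value of the 5 basophil and mast cell genes, with capitals for AGATAA, a pattern bound by GATA factors.
Prss34: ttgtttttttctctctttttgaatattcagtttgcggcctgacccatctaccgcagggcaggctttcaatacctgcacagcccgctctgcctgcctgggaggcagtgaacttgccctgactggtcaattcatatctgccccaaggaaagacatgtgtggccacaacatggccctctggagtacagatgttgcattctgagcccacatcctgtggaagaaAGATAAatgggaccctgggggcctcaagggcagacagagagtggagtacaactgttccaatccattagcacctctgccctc
The match began at -31.

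**Figure D3:**
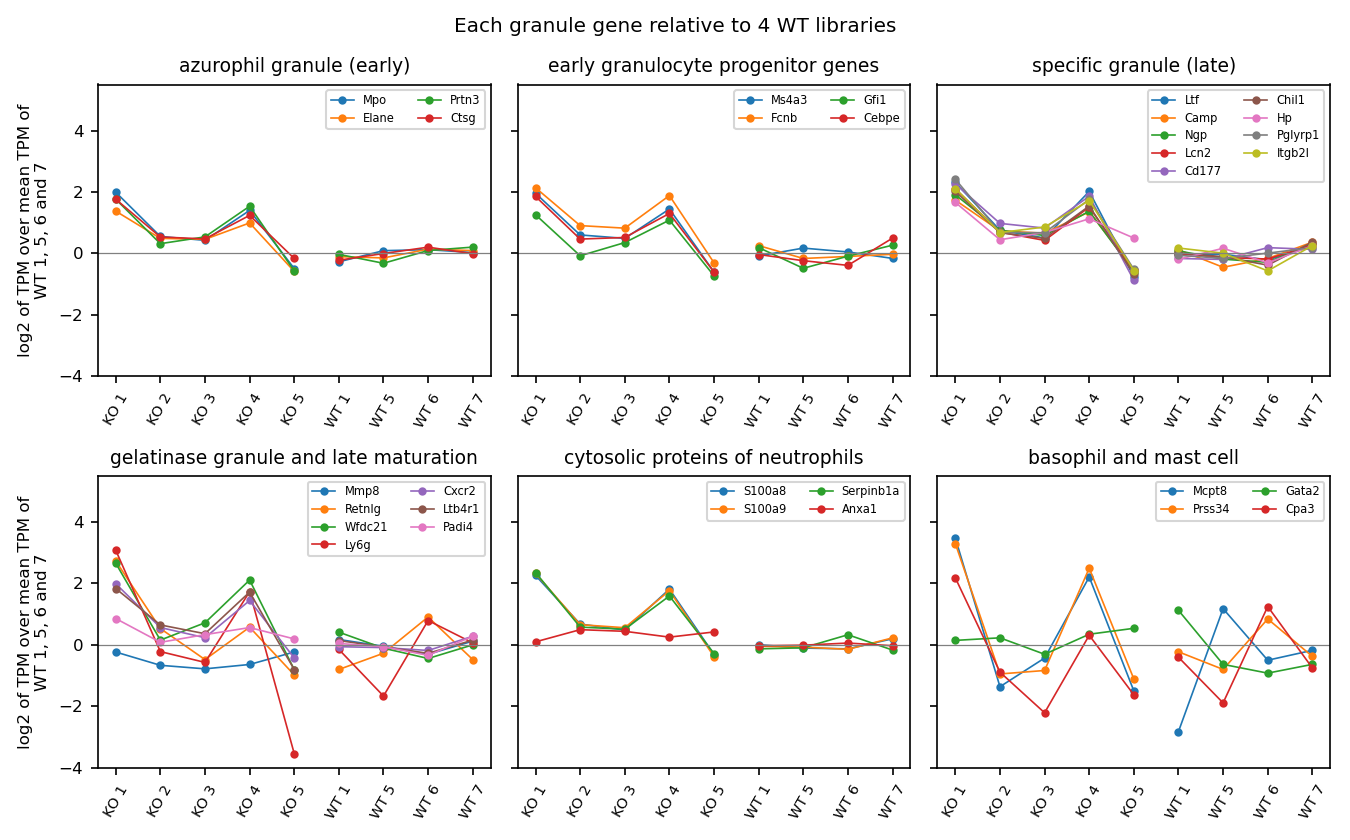
Level of each gene relative to its mean in WT replicates 1, 5, 6 and 7 (y axis, log2 of the TPM ratio) in the 9 libraries left without WT replicates 2, 3 and 4, by role. Points are single libraries, lines join the libraries of a genotype, and a value of 0 TPM has no point. Stfa1, Stfa2, Stfa2l1, Stfa3 and Ms4a2, at or near 0 TPM in WT replicates 1, 5, 6 and 7, are not drawn. Of the 27 tested genes, 23 are highest in KO replicate 1 and have their lowest KO level in replicate 5. Mmp8, Anxa1, Hp and Padi4 depart from this, as do Gata2 and Cpa3, which were not tested.

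The spread among KO libraries was shared by nearly all granule genes. Of the 27 tested genes, 25 were highest of 9 libraries in KO replicate 1, where the share over all genes tested was 16.2%, and the same 25 had KO replicate 4 as the second highest, against 6.65% of all genes. KO replicate 5 was the lowest KO library for 23 of the 27, against 26% of all genes. It lay below every one of WT replicates 1, 5, 6 and 7 for 20, a count whose share over all genes was not worked out. The exceptions to the first count were Mmp8 and Anxa1. The size of this spread varied among genes, with ranges that overlapped between the sets, and no difference between sets was tested. Among genes at 0.5 TPM or more in both libraries, the fold of KO replicate 1 over KO replicate 5 had a median of 4.47 for the azurophil genes (3.81 for Ctsg to 5.595 for Mpo), 5.47 for the progenitor genes (3.97 for Gfi1 to 5.92 for Ms4a3), 6.36 for the specific granule genes (2.23 for Hp to 8.82 for Cd177), 5.34 for 5 gelatinase and late genes (0.999 for Mmp8 to 11.04 for Wfdc21) and 6.10 for 4 cytosolic genes (0.800 for Anxa1 to 6.54 for S100a9). All 37 genes together made up 0.791%, 0.329%, 0.306%, 0.580% and 0.198% of the listed TPM in KO replicates 1 to 5, against 0.212%, 0.204%, 0.202% and 0.241% in WT replicates 1, 5, 6 and 7 and 0.128%, 0.113% and 0.199% in WT replicates 2, 3 and 4. S100a8 and S100a9 held 45.8% to 72.6% of that sum in KO, against 51.9% to 56.2% in WT replicates 1, 5, 6 and 7 and 5.62% to 7.84% in WT replicates 2, 3 and 4, where Anxa1 held 78.5% to 86.6%.

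Markers of other cell types moved with some of these libraries. The summed level of 6 monocyte markers was 363, 153, 139, 274 and 165 TPM in KO replicates 1 to 5, against 218, 214, 287 and 212 TPM in WT replicates 1, 5, 6 and 7 and 64.0, 68.9 and 137 TPM in WT replicates 2, 3 and 4, and none of the 6 was listed at 0 in any library. KO replicate 1 was the highest of 9 libraries for 4 of the 6, among them Ly6c2, at 108, 32.2, 24.6, 77.4 and 27.8 TPM in KO and 20.4 to 59.4 TPM in WT replicates 1, 5, 6 and 7. Ccr2, the monocyte chemokine receptor gene, was at 63.1, 21.3, 20.0, 45.95 and 16.3 TPM in KO and 13.6 to 35.8 TPM in WT replicates 1, 5, 6 and 7. F13a1, a coagulation factor gene and the most abundant of the 6 by its summed level, ran the other way, at 122, 74.5, 73.04, 102 and 104 TPM in KO, against 157, 162, 170.01 and 148 TPM in WT replicates 1, 5, 6 and 7. It fell by 0.76 ± 0.145 on the log2 scale with 9 libraries (SE; adjusted p 0.0296, limma), and with 12 its log2 fold change was 0.83 ± 0.847 (adjusted p 0.529). Vcan, the versican gene, was at 1.05 TPM in KO replicate 1, the lowest of the KO libraries. The macrophage marker sum varied far less in these libraries, at 11238 to 11792 TPM in KO and 11400.3 to 13918 TPM in WT replicates 1, 5, 6 and 7. The part of the monocyte markers in the levels of the granule genes was not tested. The stromal sum was lowest among KO libraries in replicates 1 and 4, at 201 and 284 TPM, and highest in replicate 5, at 619.9 TPM. WT replicate 6 had the lowest stromal sum of all 12 libraries, at 116 TPM, and there the 37 genes made up 0.202% of the listed TPM. The part of the stromal markers was not tested either.

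**Figure D4:**
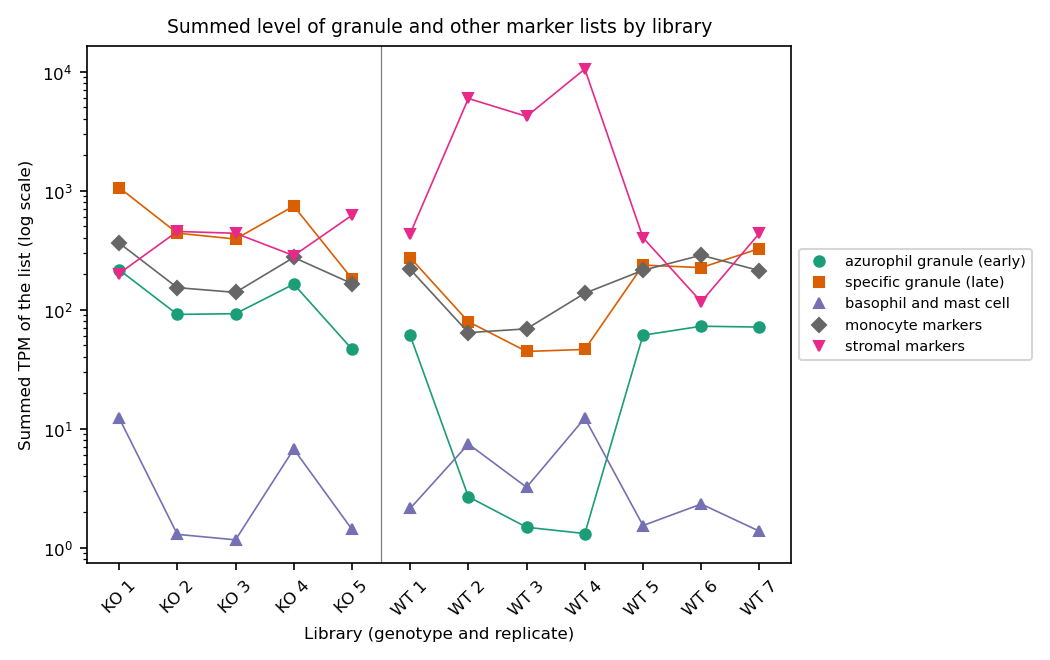
Summed TPM (y axis, log scale) of the azurophil, specific granule, and basophil and mast cell genes, and of monocyte and stromal markers, in each KO and WT library. Points are libraries and lines join those of a list. The azurophil sum is 46.5 to 216 TPM in KO and 1.31 to 2.67 TPM in WT replicates 2, 3 and 4, where the stromal sum is 4204 to 10511 TPM.

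The ratio of the early to the late granule sum overlapped between KO and 4 of the WT libraries. In the other 3 it was lower, with Lcn2 and Hp making up nearly all of the late sum. The summed level of the 4 azurophil genes was 216, 91.0, 92.3, 164 and 46.5 TPM in KO replicates 1 to 5, against 60.6, 60.9, 72.4 and 71.3 TPM in WT replicates 1, 5, 6 and 7 and 2.67, 1.48 and 1.31 TPM in WT replicates 2, 3 and 4. The summed level of the 9 specific granule genes was 1059.9, 439, 391, 741 and 182 TPM in KO, against 273, 236, 225 and 326 TPM in WT replicates 1, 5, 6 and 7 and 79.1, 44.5 and 46.2 TPM in WT replicates 2, 3 and 4. The log2 ratio of the azurophil to the specific sum was -2.30, -2.27, -2.08, -2.18 and -1.97 in KO, against -2.17, -1.96, -1.64 and -2.19 in WT replicates 1, 5, 6 and 7. These ranges overlapped, and WT replicate 6 had the highest ratio. WT replicates 2, 3 and 4 had ratios of -4.89, -4.91 and -5.14. Few genes decide such sums: Lcn2 and Hp made up nearly all of the specific sum in those 3 libraries, and Prtn3 most of the azurophil sum. Without the leading gene of each set, Prtn3 and Ngp, the log2 ratio was -1.86 to -1.44 in KO, against -1.66 to -1.12 in WT replicates 1, 5, 6 and 7 and -7.62 to -7.37 in WT replicates 2, 3 and 4. As a difference of mean log2(TPM + 1) it was 0.06 to 0.27 in KO, against 0.13 to 0.59 in WT replicates 1, 5, 6 and 7 and -1.01 to -0.82 in WT replicates 2, 3 and 4. Both of these summaries kept Lcn2 and Hp, so they cannot show whether WT replicates 2, 3 and 4 would lie lower without them. Every other specific granule gene was at 1.48 TPM or less in those libraries, the level of Ngp in WT replicate 4. The ratio was given no test, since its genes were picked for it.

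WT replicates 2, 3 and 4 were set against the other libraries as a description only, because the data and not the labels set them apart. All 3 lay below the other 9 libraries for 21 of the 27 tested genes, and for 25.5% of all genes tested. They lay above the other 9 for Mmp8 and Anxa1, where 23.6% of all genes tested did so. The remaining 4, Hp, Padi4, Wfdc21 and Mcpt8, overlapped. For 13 of the 27 genes all 3 libraries were under 1 TPM, among them Mpo, Elane, Ctsg, Ltf and Pglyrp1. The share of all genes tested that were under 1 TPM in those libraries was not worked out. In the same 3 libraries S100a8 was at 73.7 to 79.1 TPM and Lcn2 at 18.0 to 22.9 TPM, so the genes did not differ by 1 common factor there. The stromal sum, which was high, and the macrophage sum, which was low, are given above for these libraries, and their part in the granule gene levels was not tested.

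Promoter patterns were counted over all members with a RefSeq window. Windows were matched by symbol for 33 of the 37 genes, with 36 windows in all, and Hp, Wfdc21, Cebpe and Serpinb1a had no entry. Both strands were searched for TTGCNNAA as the C/EBP pattern, for GAGGAA as the PU.1 pattern and for the GATA pattern of Prss34 given above, each on its own and whether or not it overlapped another. The C/EBP pattern was in 12 of the 36 windows, or 33.3%, against 10.8% of all 32851 mouse windows. GAGGAA was in 22 of 36, or 61.1%, against 28.3% of all windows. The GATA pattern was in 8 of 36, or 22.2%, against 11.2% of all windows, and 3 of the 5 basophil and mast cell genes held it, Cpa3, Ms4a2 and Prss34. These matches describe the letters of the windows and were not tested. They do not show that a factor binds there.

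Shared sequence could have moved reads between some of these genes and others. Of the 37 genes, 25 shared no 51-base stretch, the length of a read, with any other annotated transcript, and 3 shared more than 10%, all of them stefin A genes. Mpo shared 9.34% of its stretches with other genes, mostly with Gm11505, an antisense gene inside its locus. Prtn3 shared 6.39% with Plppr3, whose start on the opposite strand overlaps the annotated start of Prtn3. Plppr3 was at 1.36, 1.76 and 2.26 TPM in WT replicates 2, 3 and 4, where Prtn3 was at 2.27, 1.22 and 1.04 TPM and its neighbour Elane at 0.14 TPM or less. Whether reads of Plppr3 were counted to Prtn3 there was not tested.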

How the data were processed

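RNA from 5 KO and 7 WT libraries was sequenced as 51-base read pairs, per the labels' protocols. The authors deposited 1 table of TPM per gene, made with bcl2fastq and Salmon 1.2.0 for mm10, per the submitters' processing notes. The sources used here do not name the annotation or any strand setting. The listed genes summed to 940127 to 947987 TPM per library. TPM keeps no read depth, so no counting interval or detection limit is given, and the number of libraries sets the precision.

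Ensembl IDs were matched to symbols through GENCODE M21, for 23423 of 23438 genes. Levels were tested as log2(TPM + 1), with a pseudocount of 1, by limma 3.58.1 in R 4.3.3 with a mean-variance trend and genotype as the only term. The 11152 genes that reached 1 TPM in 5 or more libraries were tested, with Benjamini-Hochberg adjustment and a threshold of 0.05. On this scale the fold change of a low gene is understated. The fit was run with 12 libraries and, because earlier results of these data showed WT replicates 2, 3 and 4 to stand apart, with 9. The fits were tested on simulated data.

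The 37 genes, their grouping by role and the marker lists were chosen with earlier results of these data known. All 37 are named, and of other lists only called genes, genes of highest level and those whose levels touch a result. Plppr3, Chil3, Ly6c2, Ccr2, Prg2, Fpr1, Fpr2, Slpi, Mmp9, Ctsc, Vcan and Marco were chosen after their values were seen. Early and late sets, ratios and orders of libraries were given no test. Alternatives were median-ratio scaling, no filter, a minimum of 5 TPM, a pseudocount of 0.1, array quality weights, a replicate block, and leaving out each library. Promoter windows came from RefSeq (GRCm38.p6). Read sharing was measured as identical 51-base stretches between annotated transcripts. A comparison of protein sequences was not made.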

Additional observations from a re-analysis of the deposited data

Results flagged for a closer look

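In each genotype, the highest or lowest library of each of the 37 genes was compared with its nearest neighbour by Dixon's criterion at the 95% level, over 72 groups of values. Chance flags about 1 in 20 groups, and 8 values stood out. In WT, Hp stood at 55.13 TPM in replicate 2 against 6.51 to 23.97 TPM in the other 6 libraries, Anxa1 at 1622.43 TPM in replicate 4 against 546.34 to 946.52 TPM, and Gata2 at 5.28 TPM in replicate 4 against 0.32 to 2.04 TPM. Stfa1 was at 0.04 TPM in WT replicate 4 and listed at 0 in the other WT libraries. Cpa3 was at 0.44 TPM in WT replicate 6 against 0 to 0.14 TPM. In KO, the libraries far from the others were all replicate 1. Retnlg stood there at 6.02 TPM against 0.46 to 1.35 TPM, Cpa3 at 0.84 TPM against 0.04 to 0.23 TPM, and Stfa2 at 0.74 TPM against 0.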

How the results depend on the processing

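With 12 libraries no granule gene was called in any of the 19 other settings, where the lowest adjusted p of a tested gene was 0.0543. The log2 fold change changed sign for 3 genes. Anxa1, at -0.07, became 0.33 with array quality weights, 0.34 without WT replicates 2, 3 and 4, and ranged from -0.14 to 0.12 when 1 library was left out (above 0 only without WT replicate 4). Mcpt8, at -0.48, became 0.31 with weights and 0.43 without those 3. Hp, at 0.06, ranged from -0.12 to 0.37 when 1 library was left out (below 0 without KO replicate 1 or WT replicate 1, 5, 6 or 7). With 9 libraries and 16 other settings no sign changed. The count of granule genes called was 1 with a minimum of 5 TPM (Anxa1, adjusted p of 0.0451, among 297 of 9221 genes), 3 with weights (Anxa1, Hp and Mmp8, adjusted p of 0.0140, 0.0497 and 0.0197, among 758 of 11152), and 0 to 1 when 1 library was left out (Anxa1 without KO replicate 1, among 316 of 11152).

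The count over all genes moved more. With 12 libraries it was 14, against 4 with median-ratio scaling, 759 with weights and 2 to 36 when 1 library was left out (2 without KO replicate 5, 36 without WT replicate 6). With 9 it was 260, against 167 without a filter, 758 with weights and 51 to 462 when 1 library was left out. The lowest was without WT replicate 1, and the counts were 125, 462 and 72 without WT replicates 5, 6 and 7 and 108, 102 and 82 without KO replicates 2, 3 and 4. The cause was not tested.

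KO and WT share the replicate numbers 1 to 5, though nothing in the labels pairs them. The deviations of same-numbered libraries correlated at 0.273, 0.173, 0.114, -0.199 and -0.233, so the numbers were not read as pairs. Only KO replicates 2 and 3 correlated best with the WT library of their own number. With the replicate block, on the 10 libraries that share numbers, 0 genes were called, and 3706 had an unadjusted p under 0.05. The fit of those libraries that left out the block called 13, a setting added after seeing the data, and Hp stood at -0.25 in both. In the 9-library set only 4 libraries share numbers, and both fits called 0, with 897 and 825 genes at an unadjusted p under 0.05.

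The log2 ratio of early to late granule genes moved by more than the SD of its genotype in 20 of 24 values under the other summaries given above. That SD was 0.136 in KO and 1.61 in WT, where it includes WT replicates 2, 3 and 4. The summaries lie on different scales, so this count cannot show whether the pattern among libraries held. Depth is unknown from TPM, so values near 0 TPM cannot be told from sampling.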

Other observations

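Of 34 further neutrophil genes in the table, 13 had their highest level of the 9 libraries in KO replicate 1, counting only genes that reached 1 TPM there. Of the 34, 26 were tested, 0 were higher and 1 was lower in KO with 9 libraries by limma, and none was called with 12 (10 and 8 at an unadjusted p under 0.05). The gene that fell was Lyz2, the lysozyme gene of macrophages and neutrophils, by 1.55 ± 0.0627 on the log2 scale (SE; adjusted p 5.7e-06, limma), and by 1.40 ± 0.28 (adjusted p 0.111) with 12 libraries. It was at 4932 to 5853 TPM in KO, against 14635 to 16912 TPM in WT replicates 1, 5, 6 and 7. In WT replicates 2, 3 and 4 it was at 16587, 21547 and 5232 TPM, so WT replicate 4 lay within the KO range. The cause of the lower level in KO was not tested. Bpi, a bactericidal protein of human azurophil granules, was listed at 0 in all 12 libraries. WT replicates 2, 3 and 4 all lay below the other 9 libraries for 13 of the 34 genes and all above for 4, against 25.5% and 23.6% of all genes tested. Ctsc, whose product activates the granule serine proteases, was at 313 to 379 TPM in KO, against 360 to 492.9 TPM in WT replicates 1, 5, 6 and 7 and 84.8, 112 and 58.2 TPM in WT replicates 2, 3 and 4. The formyl peptide receptor gene Fpr1 was at 0.42 to 1.76 TPM in KO, against 0.43 to 1.90 TPM in WT replicates 1, 5, 6 and 7 and 65.2, 82.5 and 51.1 TPM in WT replicates 2, 3 and 4. Fpr2 and Slpi, a secreted inhibitor of elastase, were likewise higher in those 3 libraries than in the other 9, at 21.6, 23.9 and 18.6 TPM and at 148, 109 and 74.2 TPM. Mmp9, which encodes gelatinase B, was at 9.96, 9.88, 10.1, 9.22 and 48.65 TPM in KO, against 5.58 to 7.21 TPM in WT replicates 1, 5, 6 and 7 and 47.4, 44.7 and 41.5 TPM in WT replicates 2, 3 and 4, so KO replicate 5 stood with those 3 WT libraries.

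Chil3, a chitinase-like gene of macrophages and neutrophils and a relative of Chil1, was likewise highest in KO replicate 1 and lowest of the 9 libraries in KO replicate 5, at 429.6, 178, 165, 316 and 83.2 TPM in KO, against 119, 99.8, 122 and 135 TPM in WT replicates 1, 5, 6 and 7 and 1.99, 2.06 and 2.99 TPM in WT replicates 2, 3 and 4. Its log2 fold change was 2.98 ± 1.19 (SE; adjusted p 0.255, limma) with 12 libraries and 0.77 ± 0.4 (adjusted p 0.336) with 9. Prg2, the gene of eosinophil major basic protein, was at 14.0, 5.80, 7.59, 11.9 and 1.48 TPM in KO, against 4.42, 2.30, 6.21 and 6.53 TPM in WT replicates 1, 5, 6 and 7 and 0.07 TPM or less in WT replicates 2, 3 and 4. Of 9 eosinophil genes, 4 were tested and 0 were called in either set (2 at an unadjusted p under 0.05 with 12 libraries and 1 with 9). Unlike Prg2, the others tested, Ear2, Siglecf and Ccr3, had their lowest KO level in replicate 1, at 0.99, 1.89 and 0.65 TPM. In KO replicates 2 to 5 they were at 2.37 to 4.11, 3.04 to 4.86 and 1.15 to 2.01 TPM.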
